A study of Danio rerio with 12 samples.

Results

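The SoxD and SoxE genes encode 2 neighbouring subfamilies of Sox transcription factors, and 8 of the 25902 genes in the count table belong to them. They were found by gene name as the 3 SoxD genes *sox5*, *sox6* and *sox13* and the 5 SoxE genes *sox8a*, *sox8b*, a pair of *sox9* genes and *sox10*. Both *sox9* rows carry the name SOX9 in the name table, which drops the zebrafish paralog letter, so they are given here by their Ensembl identifiers, ENSDARG00000003293 and ENSDARG00000043923. The *sox8a* row (ENSDARG00000105301) has its letter in the study's list of genes, and *sox8b* (ENSDARG00000037782) is the one other SOX8 row. The remaining identifiers are ENSDARG00000011582 for *sox5*, ENSDARG00000015536 for *sox6*, ENSDARG00000030297 for *sox13* and ENSDARG00000077467 for *sox10*. All 8 passed the filter on low counts in every comparison.

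Sox proteins bind DNA through a high-mobility-group domain. Sox9 is the master regulator of chondrocyte fate in vertebrates, and mouse Sox5 and Sox6, which lack a transactivation domain of their own, assist it in switching on cartilage matrix genes such as those for type II collagen and aggrecan. Sox10 is needed for the pigment, glial and enteric derivatives of the neural crest, and Sox8, Sox9 and Sox10 act in part redundantly in the crest, the inner ear and the oligodendrocyte lineage. In zebrafish, Sox6 also represses slow-muscle genes in fast muscle fibres.

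Poly-A RNA from whole zebrafish embryos at 48 h post-fertilization (hpf) was sequenced in 12 libraries, 3 for each of 4 groups. Mutant larvae carried apc-mcr, a truncating allele of the Wnt pathway inhibitor *apc*, in homozygous form, and received either vehicle (0.1% DMSO) or 100 nM rapamycin, an inhibitor of the kinase complex mTORC1, from 24 hpf. WT larvae received the same vehicle or the same rapamycin. The WT groups pool wild-type and heterozygous siblings, because homozygotes were sorted from them by shape at 24 hpf, so no group is free of the allele by genotyping. Each replicate pools 20 embryos by the labels, and the methods state 3 independent clutches. A whole embryo holds all tissues at once, so fewer cells of a type and less RNA per cell cannot be told apart in any value below.

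Total counts per library ran from 69693340 to 77584080 in mutant vehicle, 74395349 to 77680617 in WT vehicle, 73243315 to 82364863 in mutant rapamycin and 51692772 to 79553529 in WT rapamycin. The 3 WT rapamycin libraries were less alike among themselves than those of the other groups. Their mean correlation with the other libraries of their own group (r of log2 values) was 0.950 to 0.965, against 0.982 to 0.988 in the other 9 libraries. *apc* itself had 96.7, 102.2 and 73.2 TMM-scaled counts per 1e+06 (CPM) in mutant vehicle and 126.5, 127.4 and 127.6 CPM in WT vehicle, a log2 fold change of −0.49 (SE, standard error, 0.12, adjusted p = 0.0153 by the edgeR quasi-likelihood test). With rapamycin it had 95.1, 77.2 and 76.8 CPM in mutants, and 132.3, 137.1 and 63.9 CPM in the libraries labelled WT. The lowest *apc* value of all 12 therefore came from the library labelled WT rapamycin replicate 3. Counts over the whole gene do not show the truncating base change. That library was on the WT side in 4 genes that separated the genotypes widely, with 53.1 CPM of the cartilage gene *matn1*, 9.73 CPM of the otoconial gene *oc90*, 13.3 CPM of the tectorin gene *tectb* and 8.34 CPM of the aggrecan gene *acana*. For *acana* this was the lowest WT value, the other 5 WT libraries having 12.3 to 17.6 CPM and the mutant libraries at most 0.933 CPM. *matn1* had at most 0.495 CPM and *tectb* at most 0.800 CPM in any mutant library, and *oc90* at least 89.6 CPM.

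The first question was how the members differed between mutant and WT larvae given vehicle. The SoxD genes *sox5* and *sox6*, the SoxE gene *sox8a* and *sox9* (ENSDARG00000003293) fell in mutants, by 1.63- to 2.47-fold. *sox13*, *sox9* (ENSDARG00000043923) and *sox10* did not pass the test, with log2 fold changes of −0.14, −0.35 and −0.17. With the replicate number as a block, *sox9* (ENSDARG00000043923) had an edgeR adjusted p of 0.0289. *sox8b* had lower values in every mutant library but rested on few counts and narrowly missed the threshold. CPM values are scaled by the trimmed mean of M values (TMM). They are not corrected for transcript length, so a gene is compared with itself between groups, and a sum or share over several genes weights each by its transcript length and serves only to compare libraries.

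*sox5* had 17.2, 14.0 and 9.87 CPM in mutant vehicle, against 27.3, 22.7 and 23.9 CPM in WT vehicle. The groups did not overlap, and mutant replicate 3 was the lowest. The log2 fold change was −0.85 (SE 0.18, edgeR adjusted p = 0.00832). Its partner *sox6* had 8.83, 8.31 and 6.93 CPM in mutant vehicle, against 14.8, 14.5 and 16.5 CPM in WT vehicle. Again every mutant library lay below every WT library. Its log2 fold change of −0.93 carried the smallest standard error of the 4 genes that fell, 0.12, and an edgeR adjusted p of 0.000596. Both genes thus fell by just under 2-fold, 1.80-fold for *sox5* and 1.90-fold for *sox6*.

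*sox13*, the third SoxD gene, did not pass. It had 14.4, 15.4 and 12.4 CPM in mutant vehicle and 14.0, 16.4 and 16.2 CPM in WT vehicle, and the groups overlapped. Its log2 fold change was −0.14 (SE 0.11, edgeR adjusted p = 0.389), and the 95% interval of −0.39 to 0.11 leaves out the changes measured for *sox5* and *sox6*. The difference between genes was not itself tested. Summed over the 3 SoxD genes, the level was 35.8 ± 5.88 CPM in mutant vehicle and 55.4 ± 1.55 CPM in WT vehicle (SD, n = 3 each).

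*sox8a* was the member with the widest gap. Mutant vehicle libraries had 0.955, 0.544 and 0.405 CPM, against 1.31, 1.49 and 1.87 CPM in WT vehicle, from 31 to 67 counts per mutant library and 106 to 152 counts per WT library. The groups did not overlap, and the CV within mutants was 45.0%. Its log2 fold change of −1.30 (SE 0.32, edgeR adjusted p = 0.0158) made it the one member called at an adjusted p under 0.05 and at least 2-fold. Without WT vehicle replicate 3 the value was −1.14 and the call was lost (edgeR adjusted p = 0.0684). Its paralog *sox8b* had 0.214, 0.223 and 0.262 CPM in mutant vehicle and 0.372, 0.445 and 0.505 CPM in WT vehicle. All 3 mutant libraries lay below all 3 WT libraries, but these values rest on 15 to 20 and 30 to 41 counts. Its log2 fold change was −0.92 (SE 0.31, edgeR adjusted p = 0.0556), with an edgeR adjusted p of 0.0434 under upper-quartile scaling and a DESeq2 adjusted p of 0.127.

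Of the *sox9* pair, 1 gene passed. *sox9* (ENSDARG00000003293) had 22.3, 17.9 and 16.8 CPM in mutant vehicle, against 34.5, 25.7 and 32.4 CPM in WT vehicle, with no overlap. Its log2 fold change was −0.70 (SE 0.14, edgeR adjusted p = 0.00654), a 1.63-fold fall. *sox9* (ENSDARG00000043923) had 8.18, 11.6 and 8.27 CPM in mutant vehicle and 8.94, 15.1 and 11.7 CPM in WT vehicle, and replicate 2 was the highest library in both groups. The groups overlapped, with a log2 fold change of −0.35 (SE 0.20, edgeR adjusted p = 0.242). Each mutant library was nevertheless below the WT library of the same replicate number, by 0.13, 0.38 and 0.50 on the log2 scale. With the replicate number as a block, the change was −0.34 (SE 0.10), and its adjusted p was 0.0289, below the threshold without a fold minimum. Together the 2 *sox9* genes gave 28.3 ± 2.88 CPM in mutant vehicle and 42.7 ± 1.75 CPM in WT vehicle (SD, n = 3 each).

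*sox10*, which marks the migrating neural crest and its glial and pigment derivatives, had 8.42, 13.9 and 10.2 CPM in mutant vehicle, against 8.69, 15.2 and 12.7 CPM in WT vehicle. The 2 groups covered nearly the same range, and replicate 1 was the lowest and replicate 2 the highest in both. The log2 fold change was −0.17 (SE 0.23, edgeR adjusted p = 0.634), with a 95% interval from −0.68 to 0.35. A fall of up to 0.68 on the log2 scale lies within that interval. With the replicate block the value was −0.17 with an SE of 0.10, and its edgeR adjusted p was 0.213.

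**Figure D1:**
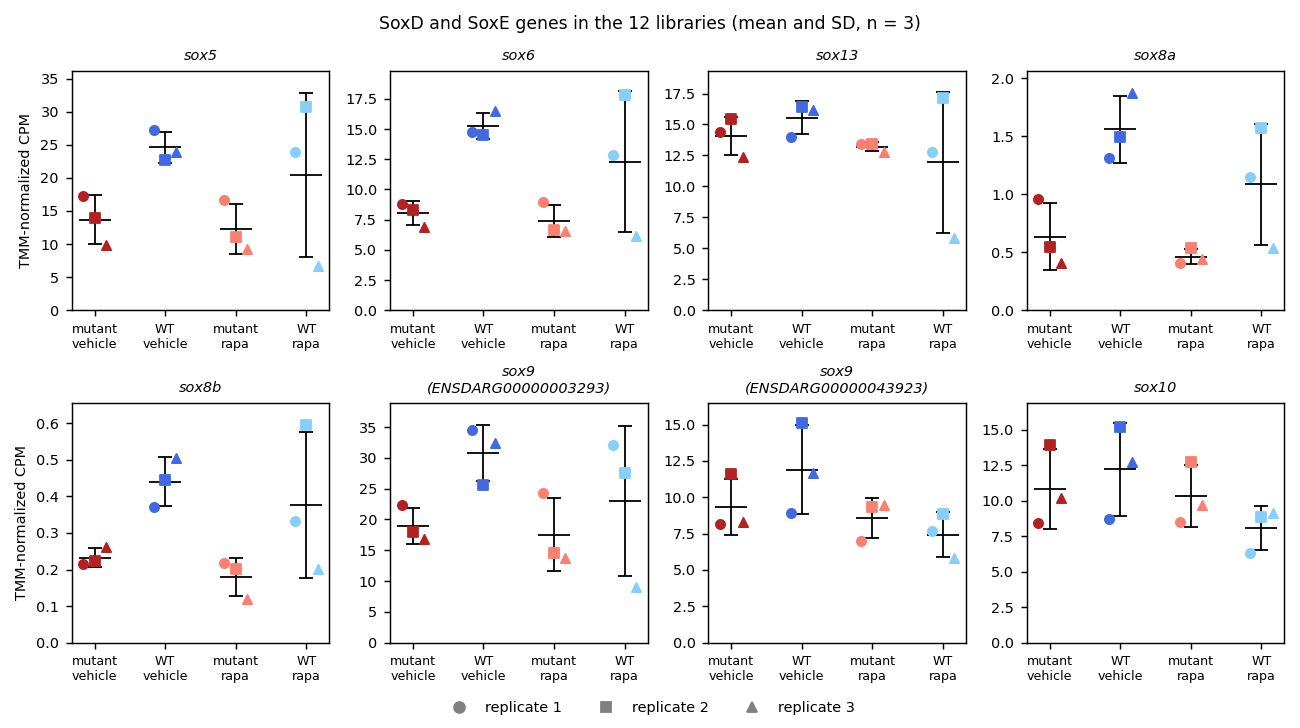
TMM-normalized CPM of the 8 genes (vertical axis, each panel from 0 on its own scale) in the 4 groups (horizontal axis), with the marker shape giving the replicate number and the black bars the mean and SD (n = 3). Mutant vehicle points lie below all WT vehicle points for *sox5*, *sox6*, *sox8a*, *sox8b* and *sox9* (ENSDARG00000003293), and WT rapamycin replicate 3 (triangle) lies below the other 2 libraries of its group for every gene but *sox10*.

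Taking the 8 members as a group, 1 was called lower and 0 higher at 2-fold, where 7.95% of the 22335 genes tested were called, 3.90% lower and 4.05% higher. Without the fold minimum, 4 of 8 were lower and 0 higher, against 13.6% of all genes called lower, 14.8% called higher and 28.4% in either direction. Groups that did not overlap were found for 5 members, all of them lower in mutants, against 21.8% of all genes lower and 43.8% in either direction. The median log2 fold change of the members was −0.77, and that of all genes was −0.00. The median has no test, since the members were chosen with results known. When all 12 libraries shared one estimate of the spread, the log2 fold changes were almost the same but the standard errors grew, and *sox5* (edgeR adjusted p = 0.213) and *sox9* (ENSDARG00000003293; edgeR adjusted p = 0.240) no longer passed. *sox6* (edgeR adjusted p = 0.0451) and *sox8a* (edgeR adjusted p = 0.0404) still did. Without mutant vehicle replicate 1, 3 members were called at 2-fold, *sox5* at −1.04, *sox6* at −1.002 and *sox8a* at −1.71, against 7.70% of all genes called in that fit and 3.81% lower.

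The second comparison asked whether the same genes differed when both genotypes received rapamycin. With all libraries 0 of the 8 members were called by edgeR, against 7.64% of the 22841 genes tested, 3.80% lower and 3.84% higher. Without the fold minimum it was again 0 of 8, against 17.4% of all genes. This fit used all 12 libraries, whose spread was wider than that of the 6 vehicle libraries, so its counts are not on the same footing as those in vehicle. At an unadjusted p under 0.05 there were 3 members, *sox6*, *sox8a* and *sox8b*, against 6813 of all genes, or 29.8%. *sox8a* was called with all libraries by DESeq2 and under upper-quartile scaling, and by edgeR without mutant vehicle replicate 1, where 7.32% of all genes were called. No member had separate groups, against 29.1% of all genes. The count of members called changed in 2 of the 12 fits that left out a library, and changed most with one. Without the library labelled WT rapamycin replicate 3, 4 members were called lower at 2-fold and 0 higher, against 9.39% of all genes called in either direction and 5.19% lower. Values without this library are given below because its low values for the members were seen. It was the lowest of its group for every member but *sox10*, so leaving it out had to lower their mutant to WT ratio. The adjusted p-values without it are therefore descriptive and add no separate evidence of a fall.

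*sox5* had 16.6, 11.0 and 9.24 CPM in mutant rapamycin, against 24.0, 30.7 and 6.69 CPM in WT rapamycin. The first 2 WT libraries were above every mutant library and the third was below all of them. The log2 fold change was −0.73 (SE 0.42, edgeR adjusted p = 0.274) with all libraries and −1.14 (edgeR adjusted p = 0.00518) without WT rapamycin replicate 3. *sox6* showed the same order, with 8.93, 6.63 and 6.58 CPM in mutant rapamycin and 12.9, 17.8 and 6.19 CPM in WT rapamycin. Its change was −0.73 (SE 0.29, edgeR adjusted p = 0.107) with all libraries and −1.03 (edgeR adjusted p = 0.000918) without that library. *sox13* had 13.4, 13.4 and 12.8 CPM in mutant rapamycin and 12.8, 17.2 and 5.82 CPM in WT rapamycin, a change of 0.15 (SE 0.28, edgeR adjusted p = 0.773). Without WT rapamycin replicate 3 the sign turned, to −0.16 (edgeR adjusted p = 0.407).

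Among the SoxE genes, *sox8a* had 0.409, 0.538 and 0.440 CPM in mutant rapamycin, against 1.14, 1.57 and 0.537 CPM in WT rapamycin. The groups met at one point, where mutant replicate 2 lay just above WT replicate 3. Its log2 fold change of −1.22 (SE 0.40) was close to that in vehicle and missed the threshold (edgeR adjusted p = 0.0564), and it was −1.52 (edgeR adjusted p = 0.00643) without WT rapamycin replicate 3. *sox8b* had 0.217, 0.200 and 0.120 CPM in mutant rapamycin and 0.332, 0.595 and 0.201 CPM in WT rapamycin. Counts were again low, 9 to 17 per mutant library and 12 to 28 per WT library. The change was −1.04 (SE 0.42, edgeR adjusted p = 0.114), or −1.32 (edgeR adjusted p = 0.0264) without WT rapamycin replicate 3.

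*sox9* (ENSDARG00000003293) had 24.3, 14.5 and 13.7 CPM in mutant rapamycin and 32.1, 27.6 and 9.11 CPM in WT rapamycin, which overlapped only through WT replicate 3. Its change was −0.39 (SE 0.37, edgeR adjusted p = 0.530) with all libraries, and −0.76 (edgeR adjusted p = 0.0245) without that library. *sox9* (ENSDARG00000043923) and *sox10* were the members whose change lay above 0 both with and without it. *sox9* (ENSDARG00000043923) had 6.99, 9.34 and 9.44 CPM in mutant rapamycin and 7.66, 8.84 and 5.79 CPM in WT rapamycin, a change of 0.21 (SE 0.23, edgeR adjusted p = 0.598). *sox10* had 8.49, 12.7 and 9.69 CPM in mutant rapamycin and 6.31, 8.82 and 9.16 CPM in WT rapamycin. Each mutant library was above the WT library of its number, yet the groups overlapped and the change of 0.35 (SE 0.25) did not pass (edgeR adjusted p = 0.395). With the replicate block it was 0.34 with an SE of 0.12 (edgeR adjusted p = 0.0738).

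**Figure D2:**
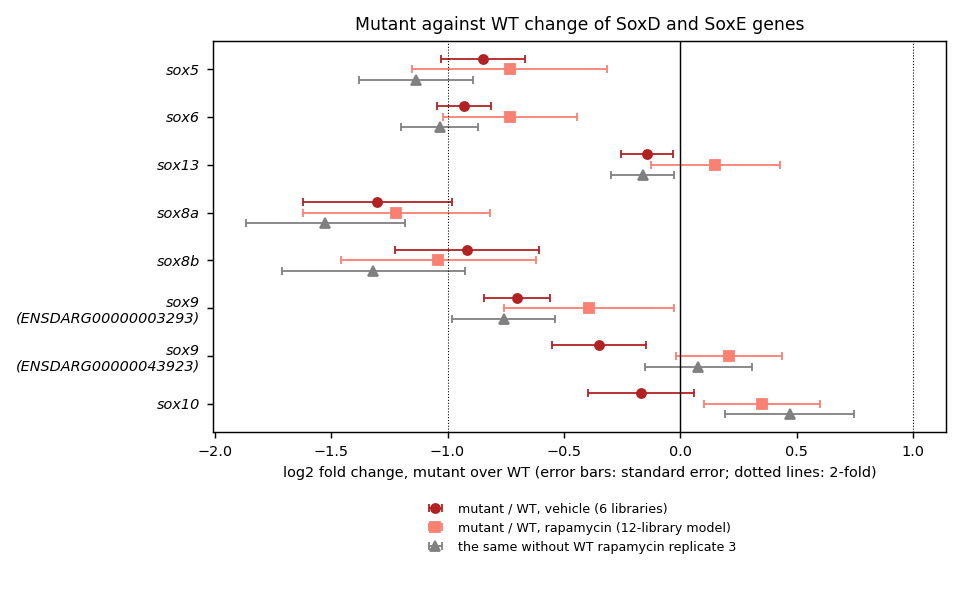
Log2 fold change of each member, mutant over WT (horizontal axis, bars show the standard error, dotted lines mark 2-fold), in vehicle (circles), in rapamycin with all libraries (squares) and in rapamycin without WT rapamycin replicate 3 (triangles). *sox5*, *sox6*, *sox8a*, *sox8b* and *sox9* (ENSDARG00000003293) are below 0 in all 3 settings, and *sox10* is at −0.17 in vehicle and at 0.35 and 0.47 in rapamycin. The library left out for the triangles was singled out after its low values were seen.

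Rapamycin against vehicle was compared within each genotype, with a call at an adjusted p under 0.05 and no fold minimum. In WT larvae edgeR called 0 genes (0% of 22841), with 1394 at an unadjusted p under 0.05, and DESeq2 called 11, none of them a member. All 8 members had a negative log2 fold change, from −0.68 to −0.25 with a median of −0.40, against 0.01 for all genes. The treated libraries did not move together. WT rapamycin replicate 3 was below all 3 WT vehicle libraries for 7 of the 8 members, *sox10* being the exception. Replicate 1 was below them for 6 members, and replicate 2 was above them for 4. The share of all genes outside the WT vehicle range was not computed, so these counts are not read as particular to the members. Over all genes, too, the WT rapamycin libraries were less alike among themselves than those of the other groups (r 0.950 to 0.965). Without replicate 3 the median of the members was −0.06.

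*sox9* (ENSDARG00000043923) and *sox10* were the 2 members with an unadjusted p under 0.05 in WT. *sox9* (ENSDARG00000043923) had 7.66, 8.84 and 5.79 CPM in WT rapamycin, against 8.94, 15.1 and 11.7 CPM in WT vehicle. The groups did not overlap, as was true of 10.7% of all genes in either direction and 5.24% lower. Its change was −0.68 (SE 0.23), which did not pass (edgeR adjusted p = 0.790), and it was −0.54 without replicate 3. *sox10* had 6.31, 8.82 and 9.16 CPM in WT rapamycin, against 8.69, 15.2 and 12.7 CPM in WT vehicle, a change of −0.59 (SE 0.25, edgeR adjusted p = 0.790). The groups overlapped by a narrow margin, since WT vehicle replicate 1 lay below 2 of the treated libraries. Against the vehicle library of the same number, *sox10* was lower by 0.46, 0.78 and 0.48 on the log2 scale, and its change was −0.71 without replicate 3. The change in these 2 genes thus did not rest on that library, whereas *sox5* at 0.14 and *sox8b* at 0.04 turned positive when it was left out.

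In mutant larvae rapamycin left the members within the spread between replicates. edgeR called 0 genes (0% of 22841), with 150 at an unadjusted p under 0.05 and 0 of them members, and DESeq2 called 0. The members' log2 fold changes ran from −0.45 for *sox8a* to −0.07 for *sox10*, with standard errors of 0.23 to 0.42. *sox8a* rested on mutant vehicle replicate 1, the highest of the 6 mutant libraries at 0.955 CPM. *sox13* varied least within a group here, with a CV of 2.67% in mutant rapamycin.

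The interaction of genotype and rapamycin tested whether the mutant against WT difference changed with treatment. No gene was called by edgeR (0% of 22841), with 364 at an unadjusted p under 0.05 and none of these a member, and DESeq2 called 2 genes. *sox9* (ENSDARG00000043923) at 0.56 (SE 0.32, edgeR adjusted p = 0.9999) and *sox10* at 0.52 (SE 0.35, edgeR adjusted p = 0.9999) had the highest interaction values of the 8. The other 6 lay between −0.12 and 0.31. The 95% intervals of all 8 included 0.

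**Figure D3:**
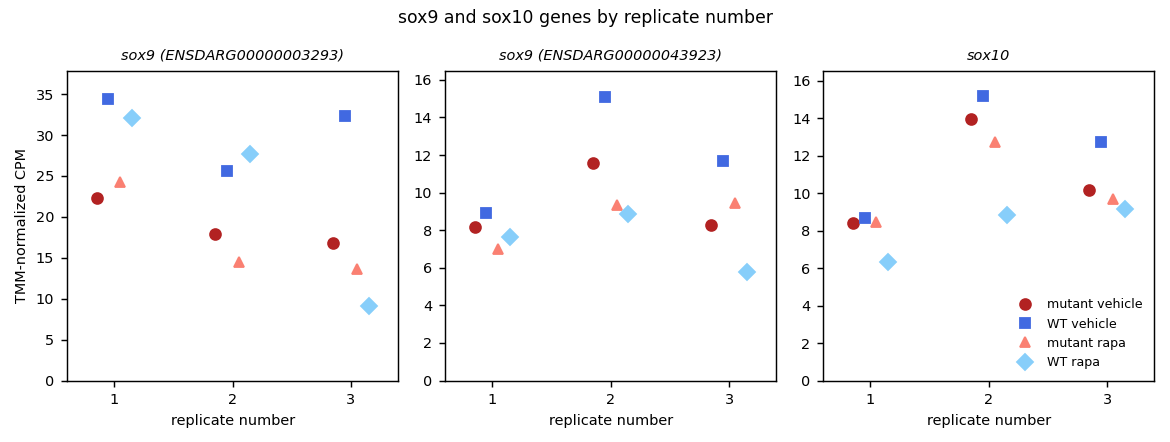
TMM-normalized CPM (vertical axis, from 0) of the *sox9* genes and *sox10* by replicate number (horizontal axis), with colour and marker giving the group. For *sox10* the mutant vehicle value is below the WT vehicle value at each number, and the mutant rapamycin value is above the WT rapamycin value at each number.

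Across libraries several members varied together, within and between the subfamilies. Over the 12 libraries, the Pearson r of log2 values was 0.95 between *sox5* and *sox6*, 0.96 between *sox5* and *sox9* (ENSDARG00000003293), and 0.88 between *sox6* and that *sox9* gene. With the group means subtracted, these were 0.97, 0.95 and 0.90. *sox6* also went with *sox8a* (0.92) and *sox8b* (0.92) over 12 libraries, and with group means subtracted these were 0.79 and 0.82. *sox13* had 0.72 with *sox5* and 0.60 with *sox6* over 12 libraries, and 0.90 and 0.94 with group means subtracted. Over the 9 libraries outside the WT rapamycin group, and with group means subtracted, *sox6* had 0.39 with *sox8a* and 0.34 with *sox8b*, and *sox13* had 0.37 with *sox5* and 0.51 with *sox6*. In that setting the 3 pairs given first had 0.89, 0.89 and 0.87. *sox10* went with *sox9* (ENSDARG00000043923), at 0.77 over 12 libraries and 0.88 over 9, and with group means subtracted at 0.65 over 12 and 0.91 over 9. With group means subtracted, *sox13* had 0.64 with that *sox9* gene and 0.595 with *sox10* over 9 libraries, and 0.62 and −0.0071 over 12. The 2 *sox9* genes had an r of 0.36 over 12 libraries and 0.17 over 9, and with group means subtracted it was 0.0941 over 12 and −0.72 over 9, so the sign was negative in 1 of these 4 settings. The share of ENSDARG00000003293 in the summed *sox9* level is, by library, 73.2%, 60.7% and 67.0% in mutant vehicle and 79.4%, 63.0% and 73.4% in WT vehicle, lowest in replicate 2 of both. It is 77.7%, 60.9% and 59.2% in mutant rapamycin and 80.7%, 75.8% and 61.1% in WT rapamycin, lowest in replicate 3 of both. All genes share these libraries and their replicate numbers, so the correlations describe them and carry no test.

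For each member the 3 genes of closest pattern were taken by r over the 12 libraries, out of 17434 that averaged 100 counts or more. For *sox5* they were *lrrfip1b* (0.99), NHS (0.99) and *bcl11ab* (0.99), and for *sox6* they were CACNA1S (0.985), ADGRB1 (0.981) and BRSK2 (0.981). *sox13* was closest to *tprn* (0.99), SRGAP2B (0.985) and PLEKHA6 (0.98). The closest genes of *sox8a* were RND1 (0.97), NLGN3 (0.96) and *myrf* (0.95), and those of *sox8b* were *mnx2b* (0.94), ADGRB1 (0.93) and *tcf7l1b* (0.93). *sox9* (ENSDARG00000003293) was followed most closely by *rusc1* (0.98), FOXP2 (0.98) and RUNX1T1 (0.98), and *sox9* (ENSDARG00000043923) by VPS53 (0.949), EMSY (0.948) and KLHL7 (0.945). *serbp1b* (0.95), KEAP1 (0.92) and ACADSB (0.92) came nearest to *sox10*. None of these 23 genes is a member. Over the 9 libraries outside WT rapamycin their r was between 0.87 and 0.99. The genes were picked for a high r over libraries that include these 9, so this is no separate check.

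The other Sox subfamilies give a frame for these values in the vehicle comparison, where 7.95% of all genes were called at 2-fold, and 13.6% were lower and 14.8% higher without the fold minimum. SoxB1 genes, which maintain neural progenitors, had 1 gene lower at 2-fold of 6, *sox1a* at −1.08 (edgeR adjusted p = 0.000614), and a median of −0.28. Without the fold minimum 2 SoxB1 genes were lower, *sox1a* and SOX1 (ENSDARG00000008131) at −0.77, and 1 was higher, *sox19a* at 0.42. SoxB2 had 0 of 3 at 2-fold, and without the fold minimum 1 lower, SOX14 at −0.87, and 1 higher, *sox21a* at 0.50. SoxC genes of differentiating neurons had 0 of 6 at 2-fold and a median of −0.39. Without the fold minimum 3 SoxC genes were lower, *sox12* at −0.98, SOX4 (ENSDARG00000098834) at −0.60 and SOX4 (ENSDARG00000004588) at −0.56. The highest SoxC change was that of SOX11 (ENSDARG00000077811) at −0.13, which did not pass (edgeR adjusted p = 0.286). SoxF, known from endothelium and endoderm, had 1 lower of 3 tested with or without the fold minimum, *sox17* at −1.53 (edgeR adjusted p = 0.0196), while *sox18* stood at 0.15. Counts of *sox17* were low, down to 7 in a mutant vehicle library. Sox genes outside SoxD and SoxE thus also included some that fell, and no list was tested against another.

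Many cartilage matrix genes, the classical downstream genes of Sox9 with Sox5 and Sox6, were lower in the same larvae. Of 23 tested, 13 were called lower at 2-fold and 0 higher, with a median of −1.18, in the vehicle comparison with its 7.95% of genes called. The furthest were *matn1* at −6.66 (edgeR adjusted p = 8.07e-06), *acana*, which encodes aggrecan, at −4.22 (edgeR adjusted p = 8.03e-06), *ucmaa* at −2.67 and *col9a1a* at −2.14. Counts of *ucmaa* were low, down to 4 in a mutant vehicle library, with 0.318 to 0.394 CPM in WT vehicle. The others called were *acanb*, *matn3b*, *matn4*, *lect1*, *col11a2*, *col9a3*, *epyc*, *col9a2* and *matn3a*, between −1.93 and −1.09. The type II collagen genes, a known target of Sox9, did not pass, with *col2a1a* at −1.06 (edgeR adjusted p = 0.159) and COL2A1 (ENSDARG00000011407) at −0.79 (edgeR adjusted p = 0.0952). Of the remaining genes, the link protein gene HAPLN1 (ENSDARG00000068516) was higher at 0.39 (edgeR adjusted p = 0.0379), *snorc* was lower at −0.55 (edgeR adjusted p = 0.0264), and *hapln1a*, UCMA and si:ch211-43f4.1 did not pass, at 0.06, 0.05 and 0.00055. Summed over the list, the level was 699.6, 1215 and 786.8 CPM in mutant vehicle and 1585, 2077 and 2171 CPM in WT vehicle.

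The cartilage genes were split in WT rapamycin replicate 3. Of the 23 genes, 9 lay below the range of the WT vehicle libraries there, 7 inside it and 7 above it, against 11 and 9 below it in WT rapamycin replicates 1 and 2. The share of all genes below that range was not computed for these libraries, so the counts have no background to be read against. *acana* was among those below, and its 8.34 CPM was also the lowest of the 3 WT rapamycin libraries, against 12.3 to 17.6 CPM in WT vehicle. *matn1* lay just above it, at 53.1 CPM, against at most 52.9 CPM in WT vehicle. The summed level of the list, which weights genes by their abundance, was 1858 CPM, the highest of the 3 WT rapamycin libraries, against 1434 and 1599 CPM in the other 2, while *sox5*, *sox6* and *sox9* (ENSDARG00000003293) were at 27.2%, 40.5% and 29.5% of their WT vehicle means. In rapamycin 9 of 23 cartilage genes were called lower and 0 higher, with a median of −0.73, against 7.64% of all genes called and 3.80% lower. Without that library 9 were called lower as well, against 9.39% of all genes called and 5.19% lower. The part of cartilage cell number in the fall of the Sox genes was not tested.

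Genes of the lineages known for Sox10 are read against the shares of all genes called in vehicle, 7.95% at 2-fold and 28.4% without the fold minimum. Among 13 glia and myelin genes tested in vehicle, 1 was called lower at 2-fold, the oligodendrocyte lineage factor *olig1* at −1.25 (edgeR adjusted p = 0.00394), and 0 higher, with a median of −0.19. Without the fold minimum 2 were lower and 1 higher. These were *olig1*, *olig2* (OLIG2 in the name table), a factor of the same lineage, at −0.83 (edgeR adjusted p = 0.00644), and the neuregulin receptor *erbb3b* at 0.47 (edgeR adjusted p = 0.0200). Of 17 pigment cell genes tested, 0 were called at 2-fold in either direction, and the median was 0.06. Without the fold minimum 1 was lower, the iridophore gene *pnp4a* at −0.84 (edgeR adjusted p = 0.0005). On the same rule 1 was higher, the melanosome gene *pmela* at 0.45 (edgeR adjusted p = 0.00624). These were also the lowest and highest changes of the list. Of 7 enteric and sympathetic genes, 0 were called at 2-fold, from PHOX2A at −0.60 to TH at −0.06, and 1 was lower and 0 higher without the fold minimum. Early neural crest genes had 0 of 10 at 2-fold, with 4 higher and 1 lower without the fold minimum, ETS1 at 0.90 being the highest and TFAP2A at −0.58 the lowest.

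Inner ear genes split in both directions, with 3 called higher and 4 lower of 12 at 2-fold in vehicle. Of all genes, 4.05% were called higher and 3.90% lower there. *oc90* (3.62), *fgf3* (1.63) and *dlx3b* (1.05) were higher, and *tectb* (−3.92), *otomp* (−2.97), *tecta* (−1.37) and *stm* (−1.27) were lower. Slow-muscle genes, which Sox6 represses in fast fibres, gave 1 lower and 0 higher of 7 at 2-fold, *prox1a* at −1.02 (edgeR adjusted p = 0.000912). The slow myosin *smyhc1* was at −0.02. Whole embryos do not show in which tissue *prox1a* fell, so its call is not read as a change in slow muscle. Without the fold minimum 2 were lower and 0 higher, *prox1a* and RYR1 (ENSDARG00000023797) at −0.36 (edgeR adjusted p = 0.0484). The list named *ryr1a*, but the name table drops the paralog letter, so both RYR1 rows were taken in. Which of them is *ryr1a* was not settled, so the row that passed may not be the listed slow-muscle gene. The other, RYR1 (ENSDARG00000011422), did not pass, at −0.30 (edgeR adjusted p = 0.238). At 2-fold 1 of 11 fast-muscle genes was lower and 0 higher. It was a *myhz1.1* row (ENSDARG00000102414) at −1.57, whose reads may be shared with near-identical myosin genes. Without the fold minimum 5 fast-muscle genes were lower and 0 higher, against 13.6% of all genes lower and 14.8% higher. The TNNT3 genes, TNNI2 (ENSDARG00000029069) and *pvalb2* were added there, between −0.47 and −0.32.

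Markers of other tissues, kept to check the label of whole embryos, also had log2 fold changes below 0 in the vehicle comparison. They ran from −1.78 to −0.06 with 0 above 0, and all 8 members lay below 0 there too. All 14 were tested in vehicle, 3 were called lower at 2-fold and 0 higher, against the same 7.95% of all genes, and 7 were lower and 0 higher without the fold minimum, with a median of −0.49. The 3 were the liver gene *fabp10a* at −1.78 (edgeR adjusted p = 0.00247), the rod opsin gene *rho* at −1.45 (edgeR adjusted p = 0.000677) and the insulin gene *ins* at −1.09 (edgeR adjusted p = 0.000756). The heart myosin gene MYL7 (−0.97), the transferrin gene *tfa* (−0.63), the glial gene GFAP (−0.45) and the endothelial gene *kdrl* (−0.31) passed below 2-fold. The summed level of these markers was 34270 to 38330 CPM in mutant vehicle and 40760 to 45780 CPM in WT vehicle, and none was at 0 in any library. With rapamycin 4 of 14 were called lower and 0 higher, against 7.64% of all genes. The part of these other tissues in the values of the Sox genes was not tested. Genes of the lists called at 2-fold with rapamycin and not in vehicle included SOX14 (−1.17), MYL7 (−1.18) and ETS1 (1.12).

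**Figure D4:**
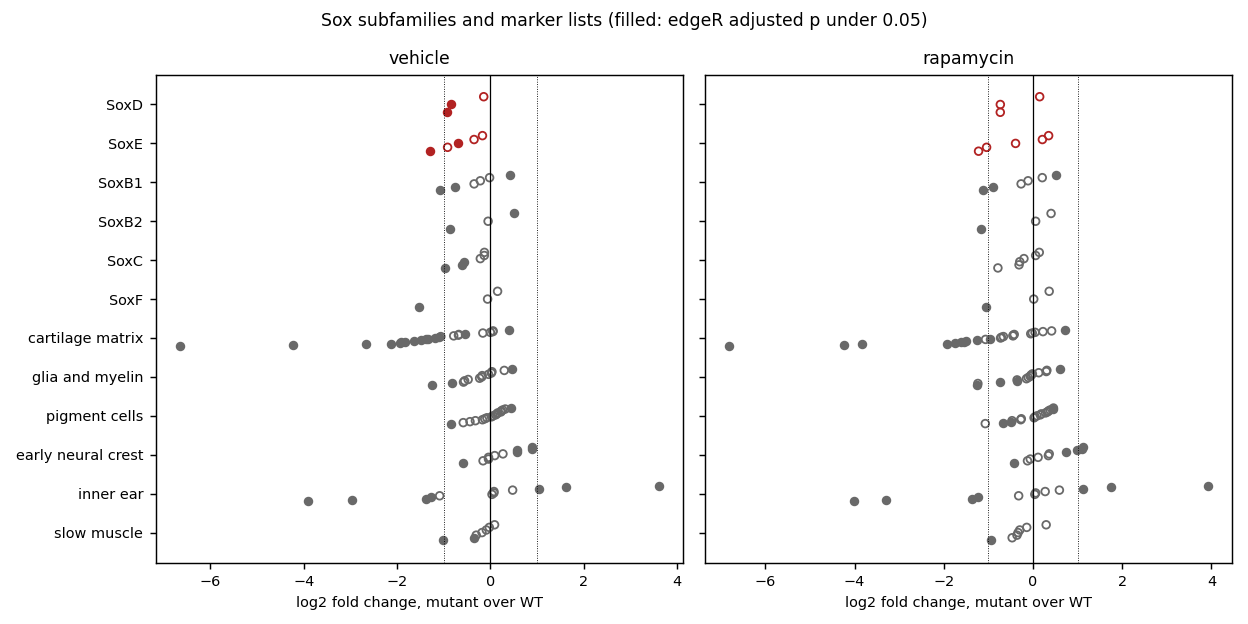
Log2 fold change, mutant over WT (horizontal axis, dotted lines mark 2-fold), of each gene tested in the Sox subfamilies (SoxD and SoxE in red) and in marker lists (rows), in vehicle (left) and rapamycin (right), with filled points for an edgeR adjusted p under 0.05. In vehicle 2 SoxD and 2 SoxE genes are filled and below 0, where 28.4% of all genes tested pass that threshold. In rapamycin none of the SoxD and SoxE genes is filled, where 17.4% of all genes pass. The vehicle fit used 6 libraries and the rapamycin fit all 12, with a wider spread. With vehicle fitted on all 12 as well, *sox5* and *sox9* (ENSDARG00000003293) did not pass. The cartilage genes reach −6.66 in vehicle and −6.81 in rapamycin.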

How the data were processed

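Poly-A RNA of 12 pooled whole-embryo samples was sequenced by the authors from stranded libraries. The deposited table gives unscaled estimated counts, which the authors had rounded, for each Ensembl gene. Reads were mapped to GRCz10 with STAR by the study's methods, and the submitters' processing notes name Salmon, with versions not given in the sources used here. Estimated counts can split reads between close paralogs such as the *sox8* and *sox9* pairs. Total counts were 51692772 to 82364863 per library. Every column was matched to its sample by name, and 1743 gene names came from the study's gene list, 21193 from an Ensembl table, and 2966 genes had none. Sequences and transcript lengths were not used here.

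The analysis used edgeR 4.0.16 in R 4.3.3, with TMM factors, filterByExpr (minimum count 10) and its quasi-likelihood test, adjusted by Benjamini-Hochberg over all genes tested. Mutant and WT vehicle larvae were compared on 6 libraries, and the other contrasts on all 12 in 1 model. A mutant against WT call needed at least 2-fold and an adjusted p under 0.05, and the rapamycin contrasts and the interaction needed the adjusted p alone. Standard errors were derived from the test statistic. The biological coefficient of variation was 15.0% in the vehicle libraries and 22.4% in all 12. P-values set a difference between groups against the spread between pooled samples, and the main fits left out the replicate number. The smallest exact permutation p for 3 against 3 is 0.1, so none is given. The fits were also run on simulated counts with known changes, drawn with the fitted dispersions. That simulation had no effect of replicate number and no wider spread in WT rapamycin, so it does not check the fits for either.

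The members and lists were chosen with earlier results of these data known. Named were all members, *apc*, for each member the 3 genes of closest pattern, and of each list the genes called at 2-fold or, with none, its highest and lowest change. Other genes of the lists that passed without the fold minimum, *hapln1a*, UCMA, si:ch211-43f4.1, *col2a1a*, COL2A1, *sox18*, *smyhc1*, the genes used to check the genotype of WT rapamycin replicate 3, the places of cartilage genes in it and values without that library were added after the data were seen. One list gene that the rule names is not reported here. Names smyhc3, mylpfa, mylpfb and hbbe2 had no row. Where the name table drops the paralog letter of a listed gene, every row of that name was taken. Some lists therefore hold paralogs that they did not name. Deviations from the group means correlated between samples of the same replicate number (18 pairs, r 0.14 to 0.42). Between different numbers r was −0.34 to −0.00266 (36 pairs). Deviations cancel out within a group, so those negative values follow from the positive ones and add no separate evidence. From the same-number values the numbers were taken to pair the samples, although no source says what a number marks, and a replicate block was fitted. Further alternatives covered DESeq2 1.42.0, scaling by RLE or by the upper quartile, no filter, other sets of libraries in the model, a different fold minimum, and fits without each library.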

Additional observations from a re-analysis of the deposited data

Results flagged for a closer look

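*sox10* was picked out because its mutant to WT ratio pointed in opposite directions in the 2 treatments, at every replicate number. All 8 members were searched for such a pattern, also for rapamycin against vehicle in the 2 genotypes, and *sox10* was the only hit. A pattern of signs sought over so many ratios can occur without a difference, so the pick is no evidence by itself. In vehicle the log2 ratio of mutant to WT was −0.04, −0.12 and −0.33 at replicates 1, 2 and 3, and in rapamycin it was 0.43, 0.53 and 0.08. The test of the difference was the interaction, 0.52 (SE 0.35, edgeR adjusted p = 0.9999), and with the replicate block 0.51 (SE 0.17, edgeR adjusted p = 0.981), so no difference was called. The ratios of replicate 1 in vehicle and replicate 3 in rapamycin were close to 0.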

How the results depend on the processing

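With 2-fold as the minimum, the vehicle comparison called 1523 to 1978 genes and 0 to 3 members when single libraries were left out. The number of members called was 0 without WT vehicle replicate 3, where *sox8a* was lost, and 3 without mutant vehicle replicate 1. In rapamycin 0 to 4 members and 1443 to 2166 genes were called, with 4 members without WT rapamycin replicate 3 and 1 (*sox8a*) without mutant vehicle replicate 1. With no fold minimum, 6333 genes (28.4%) and 4 members were called in vehicle, and 3972 genes (17.4%) and 0 members in rapamycin. The vehicle fit used 6 libraries and the rapamycin fit 12, so the estimate of the spread differed between them as well. In rapamycin DESeq2 called 1 member and upper-quartile factors 1 member, *sox8a* each time. DESeq2 called 11 genes for rapamycin in WT and 2 for the interaction, where edgeR called 0. The replicate block gave 1860 genes and 1 member in vehicle and 1839 genes and 0 members in rapamycin, and apart from *sox9* (ENSDARG00000043923) in vehicle it changed no member's side of an adjusted p of 0.05. Scaling, filtering and the choice of libraries in the model turned no member's direction.

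Leaving out single libraries turned the sign of values that had passed no test. Log2 fold changes ran from −0.39 to 0.0254 for *sox10* in vehicle and from −0.16 to 0.48 for *sox13* in rapamycin. For rapamycin in WT they ran from −0.66 to 0.14 for *sox5* and from −0.68 to 0.0377 for *sox8b*. In mutants the range was −0.43 to 0.0430 for *sox5*, −0.43 to 0.0324 for *sox9* (ENSDARG00000003293), −0.21 to 0.0731 for *sox9* (ENSDARG00000043923) and −0.26 to 0.16 for *sox10*. The interaction ranged from −0.30 to 0.50 for *sox5*, −0.11 to 0.53 for *sox6*, −0.0255 to 0.62 for *sox13*, −0.23 to 0.49 for *sox8a*, −0.41 to 0.31 for *sox8b* and −0.0660 to 0.63 for *sox9* (ENSDARG00000003293). The cause was not tested. *sox8b* had the lowest depth of the members, 9 to 41 counts per library, and the part of depth in its spread was not tested.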
